A study of Mus musculus with 16 samples.

Results

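The comparison described here is that of succinate with no succinate in the hearts of mice labelled Myh6Cre Gpr91fl/fl, in which Cre recombinase is meant to delete a floxed Gpr91 gene in cardiomyocytes. It takes 8 of the 16 heart samples of the series, 4 with and 4 without succinate, and covers all genes that passed a filter on low counts, 14607 of the 24371 genes in the deposited table. All 16 samples carried the Gpr91fl/fl alleles and came from mice in which HFpEF, a heart failure that spares the ejection fraction, was modelled with the nitric oxide synthase inhibitor L-NAME and a high-fat diet over 12 weeks. Mice of this model received succinate or none. The other 8 samples, from Gpr91fl/fl mice without Cre, were used for a shared estimate of the spread between samples and to test whether the response to succinate differed between genotypes; they are called floxed hearts below. The sources used here give no age, sex, succinate dose or route, and no heart without HFpEF was analysed here.

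Succinate is an intermediate of the tricarboxylic acid (TCA) cycle that also acts outside the cell as a ligand. Its receptor is the G protein-coupled receptor GPR91, encoded by Sucnr1. The Myh6 promoter drives Cre in cardiomyocytes, so the receptor gene of fibroblasts, vessel cells and leukocytes is not the target of the deletion, and RNA of whole heart tissue holds all of these cells. The comparison therefore asks which transcripts differ with succinate where the cardiomyocyte receptor is meant to be missing.

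Sucnr1 was close to the limit of counting in every library. Its counts were 2, 6, 21 and 3 in the untreated Cre-labelled hearts and 13, 3, 13 and 2 in those given succinate, and the groups overlapped. The mean level was 0.253 ± 0.280 CPM (counts scaled to a common library total) without succinate and 0.243 ± 0.196 CPM with it (SD, n = 4 each), a difference of -0.0104 CPM (exact permutation test, two-sided, p = 0.886, where the smallest p possible is 0.0286). Leaving out untreated replicate 3, succinate replicate 2 or succinate replicate 4 turned the sign of that difference. The 8 floxed hearts held 20 counts in all, 0 to 7 each, so Sucnr1 was counted no less often in the hearts that carry Cre, and whole-tissue counts at this level do not check the deletion in cardiomyocytes. The hearts are therefore called Cre-labelled hearts throughout. Cardiomyocyte genes marked the tissue in all 8 libraries: Tnnt2, cardiac troponin T, lay between 3645 and 4617 FPKM (fragments scaled by gene length and library total), and Actn2, sarcomeric alpha-actinin, between 597 and 726 FPKM.

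The 8 Cre-labelled libraries held 30404468 to 34700996 counts, with 18537 to 19130 genes counted at least once and 24.6% to 27.7% of counts from mitochondrially encoded genes. Replicates of a group correlated at r = 0.984 to 0.992 over genes. Untreated replicate 1 stood apart from the other untreated libraries, with r of 0.984 to 0.986 and the highest normalisation factor. Some results that rest on it are named below. Only 28 genes passed the test described below when it was left out, and not every gene that depends on it is marked. Nothing in the labels ties each sample to its own animal. The p-values below therefore reflect how much these particular samples vary, which may be technical.

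Succinate was accompanied by a change in 134 of the 14607 genes tested (0.917%), by the quasi-likelihood test of edgeR, adjusted after Benjamini and Hochberg to 0.05; all adjusted p-values below are from this test. Of these genes, 88 rose (0.602% of all tested) and 46 fell (0.315%). The changes were mostly modest. The median log2 fold change of the genes that rose was 0.58, that of the genes that fell was -0.83, and 29 genes moved by at least 2-fold, 11 up and 18 down. The 4 values with succinate lay wholly above or below the 4 without it in 131 of the 134 genes, the exceptions being Tnfrsf12a, Hspa1l and one further gene, Wnk4, which is named only for this count. Across all tested genes such separation was found upward in 4.8% and downward in 3.39%, and the median log2 fold change was 0.0068. A log2 fold change above 0 was found in 51.3% of all tested genes.

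The genes that fell by at least 2-fold included genes of antigen presentation, leukocytes and cardiac stress. Among the genes that rose, most by less than 2-fold, were enzymes of fatty acid, branched-chain amino acid, ketone and TCA metabolism. Proteins that build or maintain mitochondria were also among them. The number of genes past the threshold depended on single libraries. It fell to 28 without untreated replicate 1 and to 28, 62, 49 and 22 without succinate replicates 1 to 4, respectively, and to 83 and 85 without the floxed libraries untreated replicate 3 and succinate replicate 2, while 19 of the 134 genes passed in each of the 8 fits that left out 1 Cre-labelled library.

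The class II antigen presentation genes were lower with succinate. Molecules of major histocompatibility complex (MHC) class II display peptides from endocytosed protein to CD4+ T cells and are made mainly by dendritic cells, B cells and activated macrophages. Of 9 tested class II genes, 7 fell, none rose and 2 did not pass the test, with a median log2 fold change of -1.14 beside 0.0068 over all genes. The 7 genes that fell had no overlap between the groups. The median kept its sign and lay between -1.27 and -1.02 when any 1 Cre-labelled library was left out, but the number past the threshold fell to 2 without succinate replicate 1 or 4, to 3 without untreated replicate 1, untreated replicate 2 or succinate replicate 3, and to 4 without untreated replicate 3.

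The coactivator Ciita, which switches on class II transcription, had 4.94, 3.42, 4.14 and 2.59 CPM in the 4 untreated libraries and 1.31, 1.52, 0.991 and 1.09 CPM in the 4 with succinate. The lowest untreated value was above every value with succinate. Ciita was 3.07-fold lower, with a log2 fold change of -1.62 ± 0.27 (SE) and an edgeR adjusted p of 0.00993.

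Cd74 encodes the invariant chain that fills the class II groove until peptide is loaded. Its level was 213, 225, 233 and 185 CPM without succinate and 99.4, 124, 69.99 and 97.3 CPM with it. This was a 2.19-fold lower level (log2 fold change -1.13 ± 0.18, edgeR adjusted p = 0.00742), and it passed in each of the 8 fits that left out a Cre-labelled library. The genes of the peptide-binding chains behaved alike. H2-Aa, an alpha chain, had 98.7, 112, 122 and 84.1 CPM without succinate and 47.1, 56.7, 30.2 and 50.9 CPM with it. The beta chain H2-Ab1 had 71.3, 81.2, 84.5 and 60.9 CPM against 31.4, 38.3, 23.8 and 34.8 CPM. Among these chains, succinate replicate 3 was lowest and untreated replicate 3 highest. H2-Eb1, another beta chain, had 76.4, 88.4, 97.9 and 64.2 CPM without succinate and 35.5, 46.8, 26.7 and 41.4 CPM with it. The 3 chains fell 2.26-fold, 2.32-fold and 2.17-fold, respectively (edgeR adjusted p = 0.0269, 0.0114 and 0.0269).

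H2-DMa and H2-DMb1 encode the DM heterodimer, which exchanges the invariant chain fragment for peptide. H2-DMa had 7.72, 7.84, 8.57 and 6.77 CPM without succinate and 3.31, 5.07, 2.24 and 3.28 CPM with it, and H2-DMb1 had 8.86, 8.13, 5.69 and 5.87 CPM against 2.85, 3.77, 3.001 and 3.34 CPM. Both were lower in each library with succinate than in any without it, by 2.22-fold and 2.20-fold. The 2 tested genes that did not pass were at low levels. H2-DMb2 averaged 0.404 ± 0.148 CPM without and 0.269 ± 0.05004 CPM with succinate, and H2-Ob, a chain of the DO protein that modulates DM, averaged 0.881 ± 0.0985 and 0.804 ± 0.364 CPM (SD, n = 4). The groups overlapped for both.

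**Figure D1:**
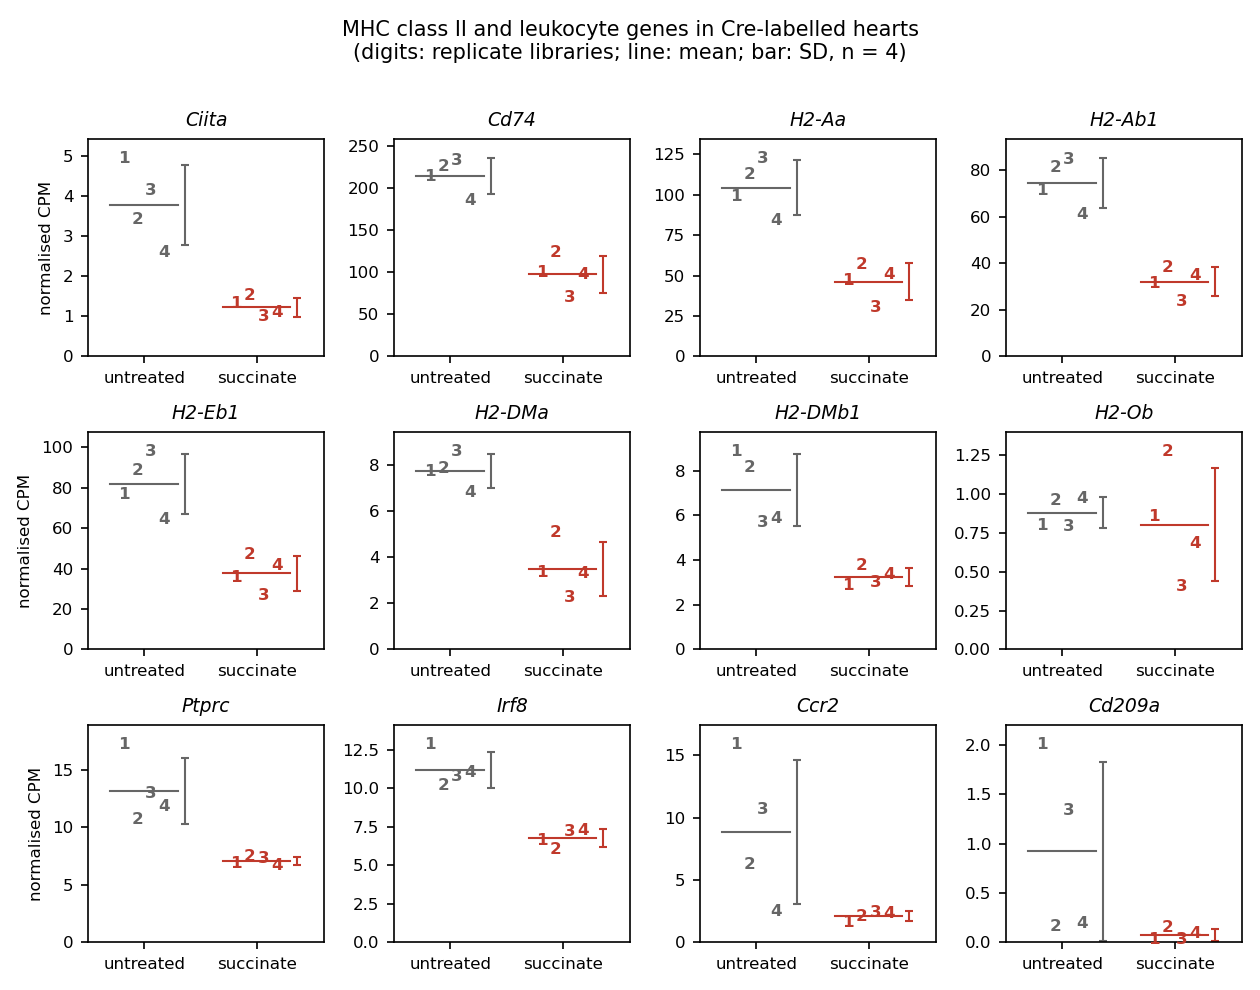
Normalised CPM (y axes, each from 0) of 8 MHC class II and 4 leukocyte genes in the 4 untreated and the 4 succinate-treated Cre-labelled hearts; digits are the replicate libraries, lines the means and bars the SD (n = 4). The untreated and succinate values do not overlap in any panel except that of H2-Ob, and the untreated values of Ccr2 and Cd209a spread widely. For Cd209a, untreated replicate 2 and succinate replicate 2 are nearly equal (0.160 and 0.156 CPM).

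Promoter stretches of class II genes are shown to set genes that fell (H2-Eb1, H2-DMb1 and H2-Aa) beside genes that did not pass (H2-DMb2 and H2-Ob). Stretches before the transcription start, from RefSeq on GRCm38.p6, are written 5′ to 3′ on the gene's strand. Capitals mark an X1 box core (AACNGATG) and a Y box (TGATTGG), motifs that were chosen after these sequences had been read.
H2-Eb1: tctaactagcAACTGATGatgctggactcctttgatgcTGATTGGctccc
H2-DMb1: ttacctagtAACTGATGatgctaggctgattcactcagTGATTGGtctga
H2-DMb2: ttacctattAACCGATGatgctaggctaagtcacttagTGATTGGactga
H2-Aa: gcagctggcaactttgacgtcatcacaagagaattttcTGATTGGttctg
H2-Ob: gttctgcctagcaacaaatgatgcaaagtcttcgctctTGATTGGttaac

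These stretches lie on chromosome 17, at chr17:34305768-34305817 for H2-Eb1, chr17:34153090-34153139 for H2-DMb1, chr17:34145119-34145168 for H2-DMb2 and chr17:34238808-34238857 for H2-Ob on the plus strand, and at chr17:34287862-34287911 for H2-Aa on the minus strand. The boxes stand 20 bases apart in H2-Eb1 and 21 bases apart in H2-DMb1 and H2-DMb2. Promoters of 7 of the 11 listed class II genes were matched by symbol; 3 held both motifs, 6 held the Y box in its forward reading, and the windows of H2-DMa held neither motif. Searched on both strands over the 300 bases from 250 before to 50 after each start, the X1 core was found in 2.32% of 32851 promoters and the Y box in 7.82%. Both in this order within 30 bases were found in 0.0213%, the promoters of 7 genes, of which 4 were class II genes (the 3 above and H2-Eb2). H2-DMb2, which holds both motifs, and H2-Ob, which holds the Y box, did not pass the test. Their log2 fold changes were -0.58 ± 0.52 and -0.13 ± 0.48 at low levels, so a fall of the size seen in the other genes could have been missed. Whether the motifs go with the fall was not tested. A match is a description of letters, not of binding.

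Several other genes of leukocytes fell, named here from those that passed. Ptprc, the pan-leukocyte surface phosphatase CD45, had 17.2, 10.7, 12.9 and 11.8 CPM without succinate and 6.86, 7.44, 7.25 and 6.66 CPM with it. Its values did not overlap, and it fell 1.87-fold (log2 fold change -0.90 ± 0.13, edgeR adjusted p = 0.0054), passing without any single Cre-labelled library. Irf8, a transcription factor of monocytes and dendritic cells, had 12.9, 10.2, 10.8 and 11.0 CPM against 6.63, 6.01, 7.20 and 7.28 CPM and fell 1.65-fold (edgeR adjusted p = 0.0295). The chemokine receptor gene Ccr2, a mark of monocytes that enter from blood, had 15.9, 6.21, 10.7 and 2.50 CPM without succinate and 1.57, 2.08, 2.42 and 2.34 CPM with it. Ccr2 fell 4.18-fold (edgeR adjusted p = 0.0349), but the untreated values spanned a wide range and the lowest of them lay just above the succinate values.

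Cd209a, a lectin of monocyte-derived dendritic cells, had 2.00, 0.160, 1.33 and 0.195 CPM without succinate and 0.0328, 0.156, 0.0291 and 0.0887 CPM with it. The fitted difference was 11.6-fold, but the values of succinate replicates 1 and 3 were below the level of 3 counts taken as the floor, 0.0865 to 0.0987 CPM in these libraries. Untreated replicate 2 (0.160 CPM) and succinate replicate 2 (0.156 CPM) were nearly equal, and the highest values were those of untreated replicates 1 and 3. Bcl2a1b, a survival gene of the BCL2 family with near-identical copies whose reads may not be told apart, fell 4.56-fold, from 1.40 ± 0.492 to 0.303 ± 0.157 CPM. Another 4 genes fell, and which cells of the whole heart their RNA came from was not tested. They were Tifab, a regulator of TRAF6 signalling, by 2.32-fold, the signalling adaptor Dok2 by 2.09-fold, the hyaluronan receptor Cd44 by 1.63-fold, and Cyth4, an exchange factor of leukocytes, by 1.54-fold. Of the genes described here, Cd209a, Ccr2, Tifab, Dok2, Cd44 and Cyth4 passed in only 1 or 2 of the 8 fits that left out a Cre-labelled library.

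Marker lists of the leukocyte types gave fewer calls. No macrophage marker passed the test, although all 14 had a log2 fold change below 0 (median -0.31). Fcgr1, an activating Fc receptor of macrophages, was at 4.40 ± 1.27 CPM without and 2.43 ± 0.622 CPM with succinate (edgeR adjusted p = 0.0859). Summed over these 14 markers, macrophage RNA was 393 to 495 CPM without and 255 to 429 CPM with succinate, and these ranges overlapped. The sums of other lists were 21.5 to 55.2 against 23.3 to 51.4 CPM for 9 monocyte markers, 32.4 to 42.7 against 22.4 to 32.5 CPM for 13 dendritic cell markers, and 2.70 to 3.99 against 2.28 to 5.07 CPM for 9 B cell markers. T and NK cell markers summed to 3.34 to 6.45 against 2.94 to 4.79 CPM, and neutrophil markers, with the defining Ly6g at 0 in all 8 libraries, to 4.18 to 9.03 against 3.73 to 5.10 CPM. In bulk tissue, fewer cells of a type and less RNA per cell cannot be told apart, and the part of leukocyte number in these results was not tested.

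The class II level was also set beside that of macrophages. The sum of 10 class II genes divided by the sum of the 14 macrophage markers was 0.976, 1.18, 1.42 and 0.951 in the 4 untreated hearts and 0.870, 0.731, 0.367 and 0.655 in the 4 with succinate, without overlap. Divided by Ptprc, the class II sum was 28.1, 49.4, 43.1 and 34.8 without and 32.4, 37.3, 21.7 and 35.0 with succinate, and these ranges overlapped.  MHC class I genes, which nearly all cells express, did not pass the test in any of 15 cases (median log2 fold change -0.16), nor did 23 of 24 interferon response genes, the exception being Irf8. The immunoproteasome subunit Psmb8, for example, was at 27.6 ± 7.51 CPM without and 21.0 ± 2.96 CPM with succinate, with overlapping values. None of 17 chemokine and cytokine genes passed; Ccl9 was at 17.3 ± 5.45 and 10.1 ± 2.40 CPM.

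Some genes of cardiac stress fell. In a strained mouse ventricle, cardiomyocytes return to a fetal pattern in which the slow beta myosin heavy chain (Myh7) is raised beside the fast alpha chain (Myh6). Of 18 listed stress and fetal genes, 3 fell (Myh7, Ankrd1 and Tnfrsf12a), none rose and 15 did not pass; the list's median log2 fold change was -0.45. No member of the list passed without succinate replicate 4.

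Myh7, the slow beta chain, had 4352, 1205, 2297 and 1945 CPM without succinate and 510.1, 477, 282 and 352 CPM with it. Every untreated value was above every value with succinate, and untreated replicate 1 was the highest. The level was 6.04-fold lower (log2 fold change -2.60 ± 0.41, edgeR adjusted p = 0.00993). Myh6 had 12380, 16750, 17360 and 16400 CPM without and 25140, 20590, 21180 and 25750 CPM with succinate, and rose 1.47-fold (edgeR adjusted p = 0.0488), though in none of the 8 fits that left out a Cre-labelled library did it pass. It was the only 1 of 20 sarcomere genes past the threshold. Per length, Myh7 fell from a mean of 385 to 60.7 FPKM while Myh6 rose from 2525 to 3635 FPKM. Mhrt, a non-coding RNA that overlaps Myh7 on the opposite strand, rose from 28.2 ± 3.59 to 38.4 ± 3.32 CPM; since no source used here gives the strandedness, reads of Mhrt and of the myosin genes at this locus may be mixed, and the 2 myosin sequences are themselves alike.

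Ankrd1, a titin-associated stretch-response protein, had 5201, 4509, 2949 and 3655 CPM without succinate and 2135, 2236, 2319 and 2140 CPM with it. The succinate values lay close together and below all untreated ones, and the fall was 1.85-fold (edgeR adjusted p = 0.0173). Tnfrsf12a, the receptor of the cytokine TWEAK, had 135, 113, 178 and 67.9 CPM against 39.8, 78.2, 44.5 and 51.0 CPM. It fell 2.31-fold with an edgeR adjusted p of 0.0497, at the edge of the threshold and with overlapping values. The natriuretic peptide gene Nppa did not pass, at 829 ± 547 and 693 ± 246 CPM, and the matrix and wound genes Tnc and Spp1 did not either; in both, untreated replicate 1 alone was high (8.78 CPM of Tnc against at most 2.34 in the other 3, and 8.28 CPM of Spp1 against at most 0.389).

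Further genes that passed lay outside that list. Gdf15, a circulating stress hormone, had 25.0, 17.9, 21.3 and 15.04 CPM without and 3.61, 6.97, 6.56 and 6.06 CPM with succinate, a 3.41-fold fall (log2 fold change -1.77 ± 0.37, edgeR adjusted p = 0.0345), which passed in 1 of the 8 fits that left out a Cre-labelled library. Gdf15 was the only 1 of 18 integrated stress response genes to pass. Of these 18 genes, 9 were above 0 and 9 below (median log2 fold change 0.0). Synpo2l, a Z-disc protein, had 286, 244, 258 and 133 CPM against 120.0, 99.5, 99.97 and 101 CPM. The groups did not overlap, and Synpo2l fell 2.19-fold (edgeR adjusted p = 0.00667) and passed without any single Cre-labelled library. Egln3, an oxygen-sensing prolyl hydroxylase that is itself induced by hypoxia, fell from 56.5 ± 7.91 to 34.1 ± 4.27 CPM. The adaptor Shb of tyrosine kinase receptors fell from 26.9 ± 6.95 to 14.7 ± 1.56 CPM, and the small GTPase Rras2 from 51.4 ± 5.73 to 37.2 ± 1.38 CPM. All 3 passed in each of the 8 fits that left out a library. Spsb4, a substrate receptor of ubiquitin ligases, fell 2.23-fold and passed in 2 of these fits. In the other direction, Adra1b, an alpha-1 adrenergic receptor, had 18.2, 15.9, 22.1 and 14.8 CPM without and 36.3, 26.1, 31.8 and 31.3 CPM with succinate, a 1.76-fold rise (edgeR adjusted p = 0.0343) that passed in 2 of these fits. None of 28 actin and adhesion genes passed, although all were below 0 (median log2 fold change -0.14). Per library, the list's median of log2 CPM against each gene's untreated mean was -0.23 to 0.30 without and -0.31 to -0.03 with succinate, so the groups overlapped.

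**Figure D2:**
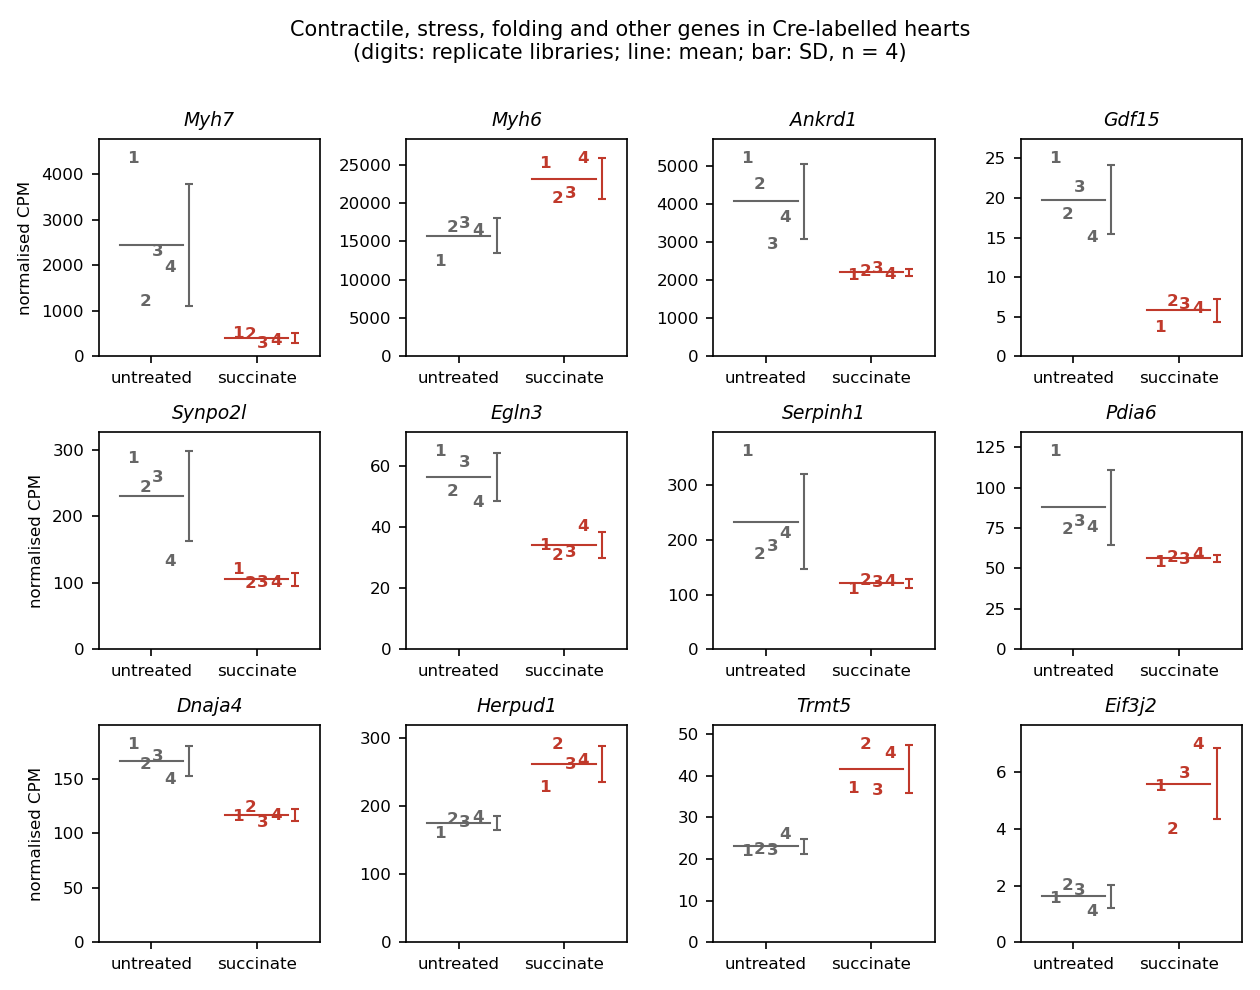
Normalised CPM (y axes, each from 0) of 12 contractile, stress, folding and other genes in the 4 untreated and the 4 succinate-treated Cre-labelled hearts; digits are the replicate libraries, lines the means and bars the SD (n = 4). Untreated replicate 1 is the highest value for Myh7, Ankrd1, Gdf15, Synpo2l, Egln3, Serpinh1, Pdia6 and Dnaja4, and the lowest for Myh6 and Herpud1. The groups do not overlap in any of the 12 panels.

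Few protein folding genes passed the test. The endoplasmic reticulum (ER) and the cytosol each hold chaperones that are induced when unfolded protein builds up. Of 24 genes of the ER unfolded protein response, 22 had a log2 fold change below 0 (median -0.33), and 14 had succinate values wholly below the untreated ones, beside 3.39% of all genes. Only Pdia6 passed downward and Herpud1 upward. Pdia6, a disulfide isomerase of the ER, had 122, 74.3, 79.2 and 75.5 CPM without succinate and 54.0, 56.9, 55.5 and 58.8 CPM with it, a 1.56-fold fall (edgeR adjusted p = 0.0278). Herpud1, which takes part in the removal of misfolded ER protein, had 159.9, 180.5, 177 and 183 CPM against 227, 291, 262 and 268 CPM, a 1.497-fold rise (edgeR adjusted p = 0.0278). The groups overlapped for neither gene. Of the 8 fits that left out a Cre-labelled library, Pdia6 passed in 3 and Herpud1 in 4, and neither passed without untreated replicate 1 or succinate replicate 2, 3 or 4.

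Of 25 heat shock chaperone genes, 24 were below 0 (median log2 fold change -0.35), while 51.3% of all tested genes were above 0. The succinate values of 8 lay wholly below the untreated ones, beside 3.39% of all genes, and 1 passed. This was Hspa1l, a member of the HSP70 family with close paralogs, at 10.4 ± 3.36 CPM without and 6.12 ± 0.570 CPM with succinate (edgeR adjusted p = 0.0393), and it passed in 1 of the 8 fits that left out a Cre-labelled library. Outside these lists, Serpinh1, the collagen chaperone HSP47, had 362, 174, 187 and 212 CPM without and 109, 127, 123 and 125 CPM with succinate and fell 1.93-fold (edgeR adjusted p = 0.0256), passing in 4 of these fits. Dnaja4, a cochaperone of HSP70, had 182, 163, 170.2 and 149 CPM against 116, 123, 110.1 and 117 CPM. Its fall of 1.42-fold was small but even (log2 fold change -0.51 ± 0.08, edgeR adjusted p = 0.00695) and passed without any single Cre-labelled library. Ptges3, the HSP90 cochaperone p23, fell from 58.6 ± 7.13 to 39.1 ± 6.03 CPM and passed in 2 of these fits.

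Few fuel metabolism genes passed the test, and those of fatty acid handling that did rose. The heart burns mainly fatty acids, which pass through mitochondrial and peroxisomal beta-oxidation, and the nuclear receptor PPAR-alpha raises many genes of this route. Of 27 fatty acid oxidation genes, 26 were above 0 (median log2 fold change 0.25) and 1 rose past the threshold. All 14 tested PPAR-alpha targets were above 0 (median 0.55), again with 1 past the threshold, and of 34 peroxisomal genes 29 were above 0 (median 0.13) and 2 rose. The other members of these lists did not pass the test. Over all tested genes, 51.3% were above 0. Per library, the median of log2 CPM against each gene's untreated mean was -0.31 to 0.25 without and 0.18 to 0.37 with succinate for fatty acid oxidation. It was -0.61 to 0.71 and 0.56 to 0.75 for PPAR-alpha targets, and -0.13 to 0.11 and 0.07 to 0.21 for peroxisomal genes. The groups thus overlapped in each of these lists.

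Ehhadh, the peroxisomal bifunctional enzyme and a PPAR-alpha target, had 5.69, 13.4, 22.1 and 12.3 CPM without succinate and 41.4, 36.1, 32.0 and 45.3 CPM with it. All succinate values were above all untreated ones, and Ehhadh rose 2.90-fold (log2 fold change 1.54 ± 0.31, edgeR adjusted p = 0.0295). Abcd3, a transporter of fatty acids into peroxisomes, rose 1.40-fold, from 98.2 ± 14.7 to 137 ± 6.73 CPM. Acad11, an acyl-CoA dehydrogenase, rose 1.39-fold, from 126 ± 18.3 to 175 ± 24.9 CPM. When each Cre-labelled library was left out in turn, Ehhadh passed in 2 of the 8 fits, Abcd3 in 1 and Acad11 in 2. Pank1, which starts coenzyme A synthesis, rose 1.62-fold and passed in 4 of these 8 fits. Slc25a42, the carrier that brings coenzyme A into mitochondria, rose 1.53-fold and passed in 1. It was the only 1 of 36 mitochondrial carrier genes to pass, with 22 above 0 and 14 below (median log2 fold change 0.03). The lipid droplet protein gene Plin3 had 119, 152, 140.0 and 143 CPM without and 198, 202, 171 and 219 CPM with succinate, a rise of 1.42-fold (edgeR adjusted p = 0.0238). Its relative Plin5, at 121 ± 33.0 and 179.8 ± 19.5 CPM, did not pass (edgeR adjusted p = 0.0985). None of 30 lipid synthesis and storage genes passed, a list that does not hold Plin3. Of these 30, 23 were above 0 and 7 below (median log2 fold change 0.14).

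Of the glucose genes, 1 rose and 1 fell. Of 37 genes of glucose use, glycolysis and pyruvate handling, 28 were above 0 (median log2 fold change 0.21). Pfkfb1, a regulator of fructose 2,6-bisphosphate and thus of glycolysis, had 1.79, 2.85, 3.42 and 3.53 CPM without and 9.91, 9.09, 6.26 and 6.36 CPM with succinate, a 2.74-fold rise (edgeR adjusted p = 0.0173). Pgam1, the glycolytic phosphoglycerate mutase, had 70.2, 38.1, 61.9 and 37.9 CPM against 28.3, 33.0, 27.8 and 36.2 CPM and fell 1.66-fold (edgeR adjusted p = 0.0488), the groups lying next to each other. Pfkfb1 passed in 6 of the 8 fits that left out a Cre-labelled library and Pgam1 in 2, neither passing without untreated replicate 1 or without succinate replicate 1. Pdhx, the component that anchors E3 in the pyruvate dehydrogenase complex, rose from 91.3 ± 6.90 to 118 ± 7.59 CPM. Of 22 genes of the fasting, FoxO and glucocorticoid response, 2 rose (median 0.35). Pik3ip1, an inhibitor of phosphatidylinositol 3-kinase, had 30.01, 63.8, 36.0 and 50.1 CPM against 81.3, 84.5, 87.4 and 88.8 CPM and rose 1.90-fold (edgeR adjusted p = 0.0173). Trim63, the muscle ubiquitin ligase MuRF1, had 140.5, 188, 153 and 142 CPM against 230.0, 250.4, 229 and 230.4 CPM and rose 1.51-fold (edgeR adjusted p = 0.0278). Pik3ip1 passed in 7 of the 8 fits that left out a Cre-labelled library, all but that without succinate replicate 4, and Trim63 in 1. Of 21 kelch protein and ubiquitin ligase genes, 2 passed, Trim63 and Klhl33. Of these 21, 14 were above 0 and 7 below (median log2 fold change 0.07).

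The branched-chain amino acid breakdown list had 3 genes that rose. This pathway turns leucine, isoleucine and valine into acyl-CoAs and TCA intermediates, succinyl-CoA among them. All 22 genes were above 0 (median log2 fold change 0.31), 9 had succinate values wholly above the untreated ones, beside 4.8% of all genes, and the 19 other than those 3 did not pass. Bcat2, the mitochondrial aminotransferase of the first step, had 64.6, 71.2, 65.7 and 60.5 CPM without and 90.9, 94.4, 79.5 and 102 CPM with succinate. It rose 1.40-fold (log2 fold change 0.49 ± 0.08, edgeR adjusted p = 0.00824) and passed without any single Cre-labelled library. Ppm1k, the phosphatase that activates the branched-chain keto acid dehydrogenase, had 35.5, 35.9, 39.4 and 37.7 CPM against 63.4, 50.5, 50.6 and 66.1 CPM, a 1.55-fold rise (edgeR adjusted p = 0.0176). Mccc2, a subunit of the carboxylase in leucine breakdown, rose 1.42-fold, from 32.6 ± 4.73 to 46.2 ± 4.66 CPM. The number past the threshold fell to 1 without untreated replicate 1, succinate replicate 1 or succinate replicate 4.

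Another 3 aminotransferase genes that passed are described here, Gpt and Kyat3 chosen after their values were seen and Got1 for its high level. Got1, the cytosolic aspartate aminotransferase of the malate-aspartate shuttle, had 522, 565, 650.1 and 607 CPM without and 841, 854, 727 and 836 CPM with succinate, a 1.39-fold rise (edgeR adjusted p = 0.0173). Gpt, an alanine aminotransferase, rose 1.79-fold, from 12.9 ± 1.93 to 23.1 ± 3.58 CPM, and Kyat3, a kynurenine aminotransferase, rose 1.63-fold, from 13.3 ± 2.44 to 21.6 ± 3.57 CPM. The groups did not overlap for any of the 3, which passed in 4 (Got1), 5 (Gpt) and 4 (Kyat3) of the 8 fits that left out a Cre-labelled library.

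Oxct1, the enzyme that lets tissues outside the liver use ketone bodies and that consumes succinyl-CoA and releases succinate, rose with succinate. It had 468, 542, 512 and 537 CPM without succinate and 779.8, 732, 742 and 923 CPM with it. Each value with succinate was above each untreated one, and Oxct1 rose 1.54-fold (log2 fold change 0.63 ± 0.09, edgeR adjusted p = 0.00593), passing without any single Cre-labelled library. The other 5 tested ketone genes did not pass.

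The TCA cycle list had 20 of 21 genes above 0 (median log2 fold change 0.25), beside 51.3% of all tested genes, and 3 that rose. The succinate values of 7 lay wholly above the untreated ones, beside 4.8% of all genes. Dlst, the succinyl transferase of the oxoglutarate dehydrogenase complex, which makes succinyl-CoA, had 400.1, 437, 459 and 405 CPM without and 589.5, 513, 520.0 and 628 CPM with succinate (1.32-fold, edgeR adjusted p = 0.0373). Idh3a, the catalytic subunit of the NAD-dependent isocitrate dehydrogenase, had 336, 396, 428 and 384 CPM against 509, 524, 476 and 517 CPM (1.31-fold, edgeR adjusted p = 0.0462). Idh1, the cytosolic NADP-dependent form, rose 1.42-fold, from 43.2 ± 5.23 to 61.4 ± 6.79 CPM. The groups overlapped for none of the 3. No gene of this list passed without untreated replicate 1 or without any 1 of the 4 succinate libraries.

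**Figure D3:**
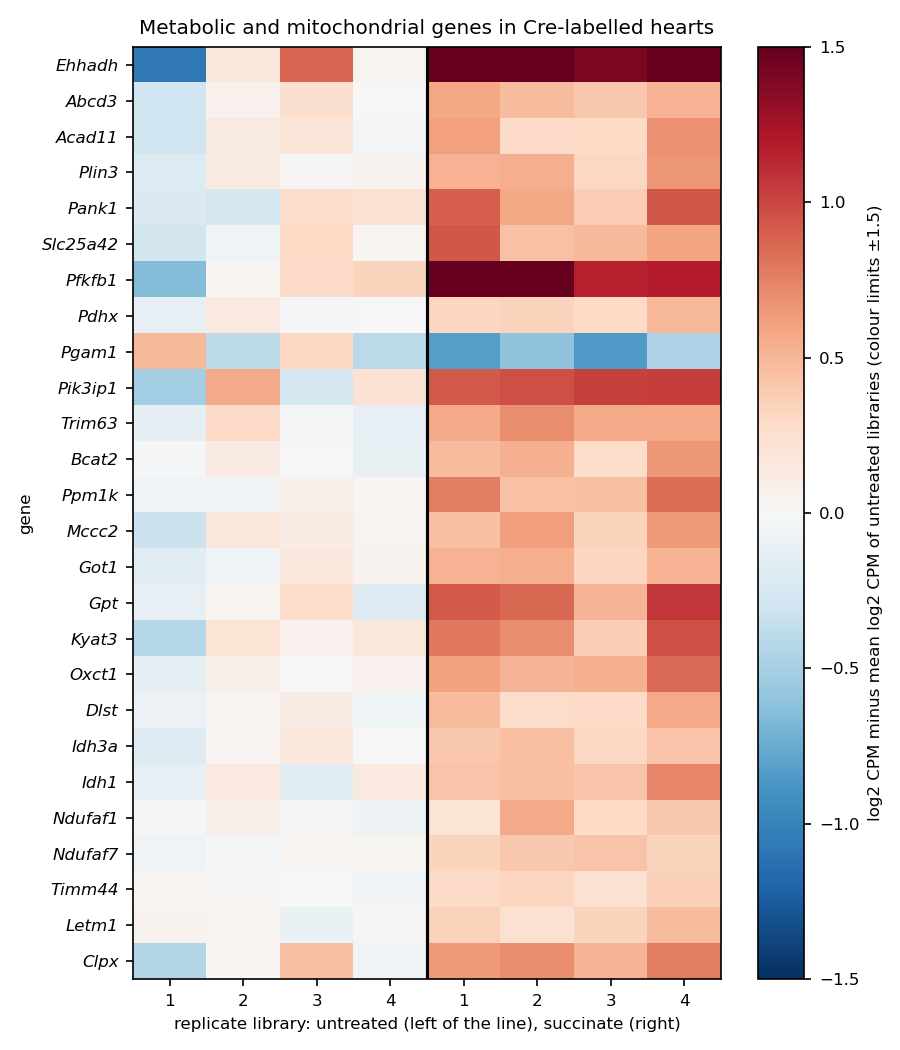
Per-library levels of 26 metabolic and mitochondrial genes (rows) as log2 CPM minus the gene's mean log2 CPM over the untreated libraries, for the 4 untreated (left of the line) and 4 succinate-treated (right) Cre-labelled hearts; red is higher and blue lower. Pgam1 is lower with succinate and the other 25 genes are higher in every succinate library than the untreated mean.

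The respiratory chain genes did not pass the test. Of 71 nuclear genes of the respiratory chain, 70 were above 0, beside 51.3% of all tested genes, but none passed the test. Their median log2 fold change was 0.14. Per library, the list's median of log2 CPM against each gene's untreated mean was -0.29 to 0.18 without and -0.04 to 0.44 with succinate, so the groups overlapped. Uqcrc1 and Uqcrc2, the core proteins of complex III, had log2 fold changes of 0.33 ± 0.10 and 0.33 ± 0.11 (edgeR adjusted p = 0.124 and 0.151). None of the 13 mitochondrially encoded genes passed (median -0.06). Of other mitochondrial genes, 5 that passed are given here, chosen after their values were seen and from no list. Ndufaf1 and Ndufaf7, assembly factors of complex I, rose 1.30-fold each. Ndufaf7 had 16.8, 17.2, 17.8 and 17.7 CPM without and 21.9, 23.03, 23.4 and 22.0 CPM with succinate, a small shift between tightly grouped replicates (edgeR adjusted p = 0.0385). Timm44, which tethers the import motor to the inner membrane, rose 1.23-fold, from 65.5 ± 1.42 to 80.7 ± 3.09 CPM, and Letm1, an inner membrane protein of ion exchange, rose 1.27-fold, from 74.4 ± 3.54 to 94.7 ± 6.78 CPM. Clpx, the unfoldase of the matrix protease ClpXP, rose 1.54-fold, from 91.3 ± 23.2 to 141 ± 10.6 CPM. When each Cre-labelled library was left out in turn, Ndufaf1 passed in 2 of the 8 fits, Clpx in 1, and Ndufaf7, Timm44 and Letm1 in none.

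Trmt5, a tRNA methyltransferase that acts in mitochondria and the cytosol, had the smallest p of all genes. It had 21.9, 22.4, 22.1 and 25.8 CPM without and 37.0, 47.6, 36.5 and 45.4 CPM with succinate. The groups were far apart, and Trmt5 rose 1.80-fold (log2 fold change 0.85 ± 0.10, edgeR adjusted p = 0.00118), passing without any single Cre-labelled library. Gstm7, a glutathione transferase with close paralogs, rose 1.85-fold with similar firmness (log2 fold change 0.89 ± 0.11, edgeR adjusted p = 0.00156), from 13.0 ± 2.20 to 24.1 ± 2.51 CPM. None of 23 listed antioxidant and glutathione genes passed; Srxn1, sulfiredoxin, was nearest, at 43.0 ± 14.5 and 24.8 ± 2.75 CPM (edgeR adjusted p = 0.0513). The membrane protein gene Rom1 rose 1.83-fold, from 12.8 ± 1.94 to 23.3 ± 1.80 CPM.

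Genes of the NAD supply did not pass. NAD carries electrons from fuel oxidation to the respiratory chain, and a nicotinamide riboside kinase, Nmrk2, is raised in failing hearts. Of 16 tested genes of NAD synthesis, transport and phosphorylation none passed (median log2 fold change 0.02), and none of 15 NAD-consuming enzymes did (0.03). The medians of both lists changed sign under other scalings. Nmrk2 had 63.6, 8.38, 6.45 and 17.2 CPM without succinate and 6.50, 5.57, 5.01 and 5.41 CPM with it (log2 fold change -2.10 ± 0.66, edgeR adjusted p = 0.153), a difference carried mainly by untreated replicate 1 and, to a lesser degree, replicate 4. The deacylase genes Sirt3 and Sirt5 had log2 fold changes of 0.31 ± 0.10 and 0.30 ± 0.09, with overlapping values.

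Several of the larger rises were found in genes of low level. Klhl33, a kelch-repeat protein, had 5.21, 14.8, 11.4 and 10.8 CPM without and 32.5, 27.2, 31.2 and 36.1 CPM with succinate, a 3.02-fold rise (log2 fold change 1.59 ± 0.25, edgeR adjusted p = 0.00824) that passed without any single Cre-labelled library. Smco1, a single-pass membrane protein, had 3.63, 6.46, 5.95 and 5.74 CPM against 12.4, 14.0, 9.76 and 11.2 CPM and rose 2.18-fold. Cngb3, a cyclic nucleotide-gated channel subunit, rose 3.88-fold, from 1.09 ± 0.619 to 4.21 ± 0.837 CPM. Tnfrsf19, a receptor of the tumour necrosis factor family, rose 3.05-fold, Flvcr2, a choline and heme transporter family member, 2.71-fold, and Rasd2, a small GTPase, 2.04-fold. Cyp2b10, a cytochrome P450 with close paralogs, rose 1.93-fold. The groups overlapped for none of these 7 genes. When each Cre-labelled library was left out in turn, Smco1 passed in all 8 fits and Cngb3 in 4. Tnfrsf19, Flvcr2 and Cyp2b10 passed in 2 of them and Rasd2 in 1.

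Few vascular genes passed the test. None of 14 endothelial markers passed, Vwf, von Willebrand factor, having 78.1 ± 17.5 CPM without and 126 ± 22.9 CPM with succinate (edgeR adjusted p = 0.151). Pdgfrb, the platelet-derived growth factor receptor of pericytes, had 75.0, 89.2, 75.9 and 73.8 CPM against 105, 90.6, 108 and 93.4 CPM and rose 1.26-fold (edgeR adjusted p = 0.0474). Pdgfrb passed in 1 of the 8 fits that left out a Cre-labelled library. It did not pass when only the 8 Cre-labelled libraries were fitted, nor on the FPKM scale. Pericyte and smooth muscle markers summed to 1280 to 1444 CPM without and 1476 to 1652 CPM with succinate, without overlap, while 6 of the 11 had a log2 fold change below 0; the part of pericyte number in the result for Pdgfrb was not tested. Gucy1a1, a subunit of the guanylate cyclase that senses nitric oxide, had 21.9, 24.4, 19.3 and 20.2 CPM against 30.4, 25.6, 34.2 and 25.6 CPM and rose 1.35-fold (edgeR adjusted p = 0.0468), the only 1 of 18 nitric oxide and cyclic GMP genes to pass. Gucy1a1 passed in 2 of the 8 fits that left out a Cre-labelled library. No fibroblast, matrix or atrial marker passed, of 11, 32 and 5 tested.

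**Figure D4:**
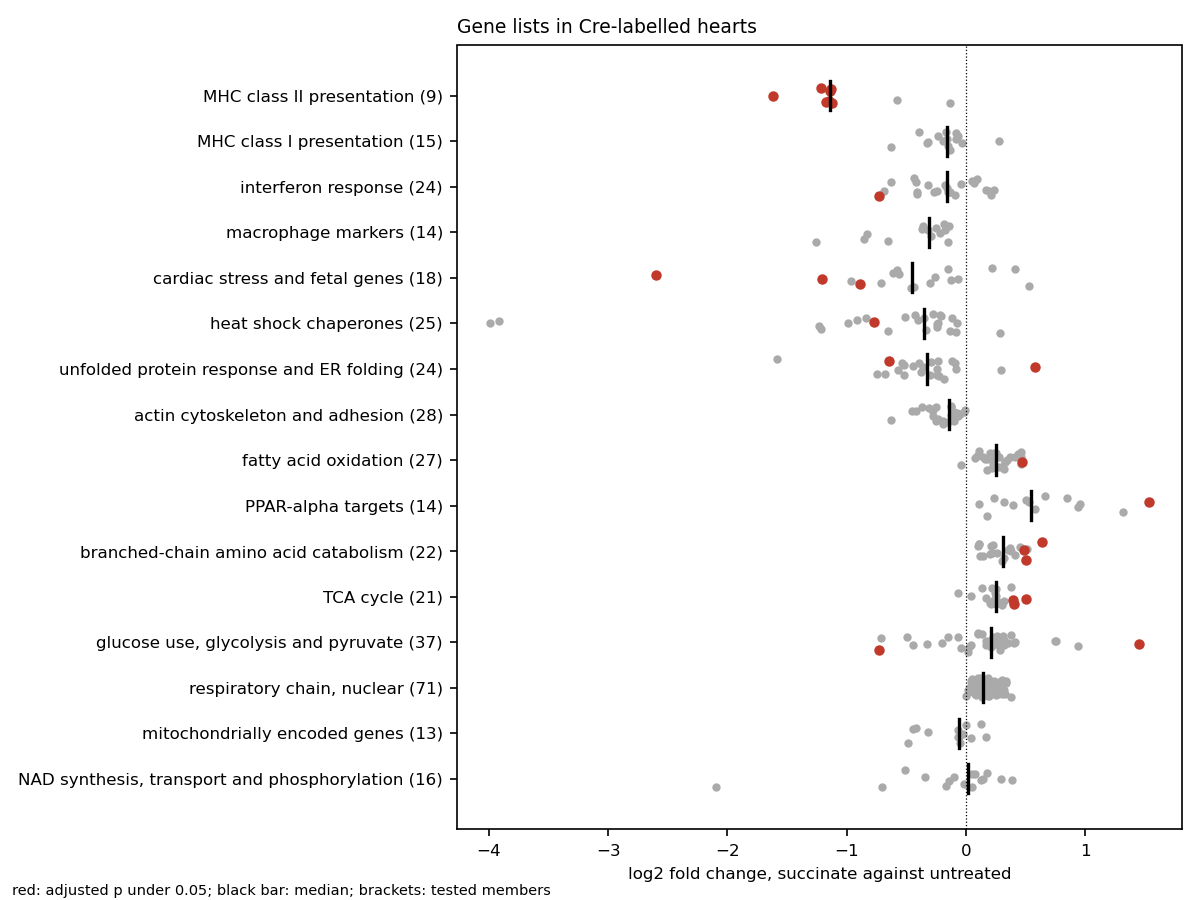
Log2 fold change with succinate in Cre-labelled hearts (x axis) for each tested member of 16 gene lists (rows, with the number tested); red points passed the adjusted p of 0.05, grey points did not, and black bars are medians. The class II list has its median at -1.14 with 7 of 9 members red, while the respiratory chain genes lie just above 0 with none red.

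The response was set against that of the floxed hearts, where Cre is absent. All 134 genes had the same sign of log2 fold change in both genotypes. By the test of the difference itself, the interaction of genotype and succinate, no gene passed (0% of 14607), the smallest edgeR adjusted p being 0.930. An unadjusted p under 0.05 was found for 709 of the 14607 genes, close to what that threshold gives by chance. DESeq2 called 4 genes. Those 4 were Eif3j2, Xrn2, Kcnj14 and Gm47985, and the last 2, with DESeq2 differences of 2.35 and 2.47 on the log2 scale, were not among the 134. Of the 134 genes, 24 had an unadjusted interaction p under 0.05, of which 8 had the larger change in Cre-labelled hearts and 16 the smaller. The 134 genes were chosen on the change in Cre-labelled hearts, which is itself part of this difference.

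Class II genes were among those with the larger fold change in Cre-labelled hearts. The log2 fold change of Ciita was -1.62 there and -0.66 in floxed hearts, a difference of -0.96 ± 0.38 (edgeR adjusted p = 0.97). For Cd74 the values were -1.13 and -0.50, for H2-Ab1 -1.22 and -0.45, and for H2-DMb1 -1.14 and -0.24. Of the 9 tested class II genes, 6 had an unadjusted p under 0.05, beside 709 of 14607 over all genes, but none passed after adjustment. The list was chosen with earlier results of these data known, and its genes were measured in the same libraries. The 6 are therefore not separate observations, and a larger change of the list in Cre-labelled hearts was not tested. Ccr2 had -2.06 in Cre-labelled and -0.73 in floxed hearts.

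Eif3j2 was 1 of the 4 genes with a difference by DESeq2. It encodes a subunit of the translation initiation factor eIF3 and has a near-identical copy, so its reads are uncertain. It had 1.55, 2.02, 1.83 and 1.102 CPM without and 5.48, 3.98, 5.94 and 6.98 CPM with succinate in Cre-labelled hearts, a 3.44-fold rise (log2 fold change 1.78 ± 0.25, edgeR adjusted p = 0.0054) that passed without any single Cre-labelled library. In floxed hearts the log2 fold change was 0.13, and the difference was 1.65 ± 0.35 (edgeR adjusted p = 0.93).

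Other genes had the smaller fold change in Cre-labelled hearts. Xrn2, a nuclear exoribonuclease, had a log2 fold change of 0.39 beside 1.02 in floxed hearts (difference -0.63 ± 0.13, edgeR adjusted p = 0.93). Mhrt had 0.45 beside 1.02 and Atosa 0.96 beside 1.74, and the linker histone gene H1f2, with 0.50, differed from its floxed value by -0.60 ± 0.15. The stress genes followed the same order: Ankrd1 had -0.89 beside -1.65, Myh7 -2.60 beside -4.03, and Gdf15 -1.77 beside -3.29. So did Klhl33, with 1.59 beside 2.63, Ehhadh, with 1.54 beside 2.58, and Clpx, with 0.62 beside 1.16. Oxct1, by contrast, had 0.63 and 0.67, Trim63 0.59 and 0.60, Got1 0.48 and 0.49, and Trmt5 0.85 and 0.97. Nppa, which did not pass in Cre-labelled hearts, had -0.26 beside -1.92 (difference 1.66 ± 0.60, edgeR adjusted p = 0.97). None of these differences held in the edgeR test after adjustment over all genes. With DESeq2, that of Xrn2 alone did (DESeq2 adjusted p = 0.0263).

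**Figure D5:**
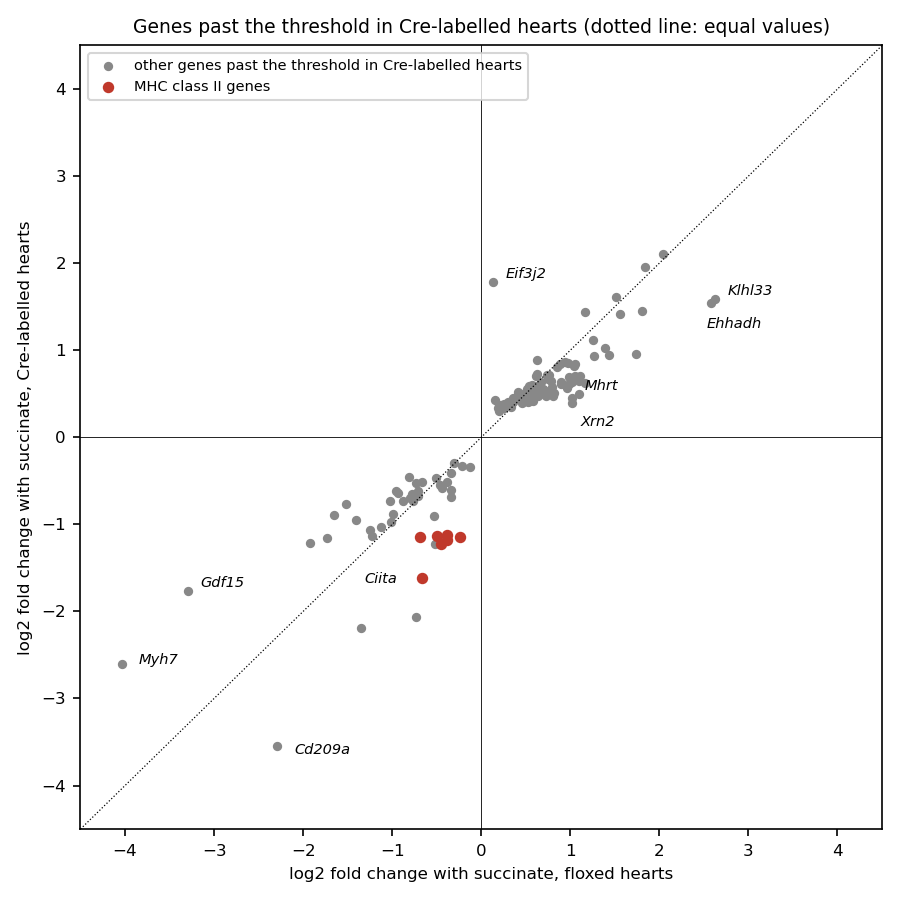
Log2 fold change with succinate in Cre-labelled hearts (y axis) against floxed hearts (x axis) for the 134 genes past the threshold in Cre-labelled hearts, chosen on the y values; red points are 7 MHC class II genes and the dotted line marks equal values. All points lie in the lower left or upper right quadrant, Eif3j2 lies near 0 on the x axis, and the class II points lie below the dotted line.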

How the data were processed

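RNA of 16 mouse heart samples was sequenced, in 4 groups of 4. Per the labels' protocols, TRIzol was used for RNA extraction and a VAHTS Universal V6 kit for the libraries. The authors deposited a table of whole-number counts per gene and a table of FPKM (counts scaled by library total and gene length). The submitters' processing notes name GRCm39 and the tools HISAT2, HTSeq, fastp, DESeq2 and R 3.2.0. Their roles, settings and the strandedness are not given, and antisense, overlapping and near-identical genes are uncertain for that reason.

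From the counts, 14607 of 24371 genes were kept by filterByExpr (minimum count 10), scaled by TMM and fitted with edgeR 4.0.16 (robust quasi-likelihood test, run in R 4.3.3). The model had 1 mean per group, 12 residual degrees of freedom and a common biological coefficient of variation of 0.159. The spread is thus pooled over all 16 samples. P-values were adjusted by Benjamini-Hochberg to 0.05. CPM are TMM-normalised except for Sucnr1, which the filter removed and which was tested by exact permutation of CPM of library totals. SEs were obtained from the log2 fold change and its F statistic. Fits were tested on simulated data. Alternatives used DESeq2 1.42.0, limma 3.58.1, other scalings and filters, log2(FPKM + 1 or 0.1), and the omission of each library.

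A floor of 3 counts equals 0.0865 to 0.0987 CPM and covers counting error only. Chi-square values per degree of freedom between replicate libraries were 14.5 to 61.1, well above sampling noise.

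The 47 gene lists and the comparison were chosen with earlier results of these data known. Lists are described by counts and medians, without a test. Genes were named by a rule: Sucnr1, the 15 largest rises and 15 largest falls past the threshold at an average log2 CPM of 1 or more, up to 4 members a list (2 where none passed), the 6 of highest FPKM and those of smallest interaction p; not all of its 110 genes are described. Genes outside it were chosen after their values were seen: H2-DMb2, H2-Ob, Ptprc, Bcl2a1b, Cd44, Cyth4, Adra1b, Serpinh1, Dnaja4, Ptges3, Pank1, Plin3, Pdhx, Gpt, Kyat3, Ndufaf1, Ndufaf7, Timm44, Letm1, Clpx, Egln3, Rras2, Shb, Wnk4, Kcnj14, Gm47985 and the promoter of H2-Eb2.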

Additional observations from a re-analysis of the deposited data

Results flagged for a closer look

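For each named gene, the 4 values of a group were checked for a single library far from the other 3 by Dixon's criterion. In 198 groups, 13 such libraries were found, where chance gives about 1 in 20. Untreated replicate 1 was the highest library for Ccl9 (25.4 CPM), Tnc (8.78 CPM), Spp1 (8.28 CPM) and Pdia6 (122 CPM), and the lowest for Rasd2 (1.39 CPM). Among the other untreated libraries, replicate 4 was the highest for Trmt5 (25.8 CPM), replicate 2 for Pdgfrb (89.2 CPM) and replicate 3 for Sirt5 (27.3 CPM). Among the succinate libraries, replicate 1 was the highest for Synpo2l (120.0 CPM) and Atp2a1 (20.6 CPM), replicate 2 for Trim63 (250.4 CPM) and replicate 4 for Idh1 (71.6 CPM), and replicate 3 was the lowest for Got1 (727 CPM).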

How the results depend on the processing

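The 134 genes past the threshold became 485 with DESeq2 (all 134 among them) and 46 when only the 8 Cre-labelled libraries were fitted (43 shared). Leaving out 1 library gave 22 to 183 genes. Other scalings, filters and the FPKM scale gave 95 to 150. No gene passed the interaction test in any edgeR or limma fit, and 4 did with DESeq2. The cause of these differences was not tested.

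Sucnr1's difference ranged from -0.0754 to 0.127 CPM over omissions, positive without untreated replicate 3 (0.127), succinate replicate 2 (0.0405) or succinate replicate 4 (0.0514). Signs turned for Nppa (log2 fold change 0.12 with limma's sample weights, -0.51 to 0.27 over omissions), Spp1 (-2.87 to 0.39) and H2-Ob (-0.45 to 0.08), none of which passed; the highest values came without untreated replicate 1, or succinate replicate 3 for H2-Ob. The other named genes kept their sign in every alternative that tested them.

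Same-numbered libraries of the Cre-labelled groups correlated at -0.0705, 0.148, -0.142 and 0.015, so the numbers were not taken as pairs. With the replicate block 136 genes passed, 101 of them shared, and 0 by interaction. Depth limits Sucnr1, Cd209a, H2-DMb2 and H2-Ob, whose counts are few.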

Other observations

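Genes that handle succinate or reach beyond the groups above were also measured. Of 5 tested genes of the succinate receptor and transport list none passed the test; Slc25a11, the mitochondrial oxoglutarate carrier, was at 359.8 ± 43.6 CPM without and 449 ± 39.0 CPM with succinate, and Slc16a1, the monocarboxylate transporter MCT1, at 229.5 ± 43.7 and 183 ± 21.5 CPM (SD, n = 4). None of 9 skeletal muscle genes passed, although 7 had a log2 fold change above 0 (median 0.40). Atp2a1, a sarcoplasmic calcium pump of fast muscle fibres, had 13.3, 12.8, 9.43 and 9.85 CPM without and 20.6, 17.5, 17.7 and 17.2 CPM with succinate, without overlap (edgeR adjusted p = 0.0851). Naprt, an enzyme that feeds nicotinic acid into NAD synthesis, had 11.0, 9.95, 9.40 and 9.69 CPM against 12.9, 12.8, 13.6 and 13.0 CPM, also without overlap (edgeR adjusted p = 0.117). None of 19 clock genes and none of 24 immediate early genes passed.

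The fractalkine receptor gene Cx3cr1 had 6.11, 9.22, 8.29 and 1.95 CPM without succinate and 2.63, 2.08, 2.83 and 3.13 CPM with it (edgeR adjusted p = 0.133). Untreated replicate 4 was below all succinate libraries for this gene and had the lowest untreated level of Ccr2, Cd74 and Synpo2l.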
